A study of Arabidopsis thaliana with 15 samples.

Results

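The root transcriptome of wild-type Arabidopsis thaliana (ecotype Columbia-0) after 2 h in 10 µM Rose Bengal (RB) was compared with that of roots in water, over all genes of the deposited count table. The comparison takes 6 of the 15 libraries of the series, 3 of RB 2 h and 3 of water, chosen by their labels. Both groups were 7-day-old seedlings grown in 16 h light and 8 h dark at 21 °C, with 30 to 50 seedlings pooled in each biological replicate and roots cut from shoots after treatment. They differ in the dye and also in time: the water libraries are labelled 1 h, while their titles read 0, so an effect of 2 h in solution cannot be told apart from an effect of the dye. A second comparison, RB 2 h against RB 1 h (3 libraries of the same genotype, age and dose), has the dye on both sides. The series also holds RB 3 h and a group given 5 mM H2O2 together with the dye for 2 h. All 15 libraries entered the filter on low counts, the scaling and the estimate of spread. The labels do not state the light given during treatment.

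Rose Bengal is a dye that absorbs light and passes the energy to oxygen, which becomes singlet oxygen, a short-lived oxidant of lipids, proteins and RNA. In plants, damaged proteins release heat shock factors, which switch on chaperone genes, and reactive carbonyls and foreign compounds switch on glutathione transferases and glycosyltransferases, partly through TGA factors. Growing root cells loosen their walls with expansins and xyloglucan enzymes, and root hairs lay down extensins, which are hydroxyproline-rich structural wall proteins.

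The libraries held 1032423, 1927894 and 2305295 counts in RB 2 h replicates a, b and c, and 897728, 1423360 and 1897364 counts in water replicates a, b and c. Values below are CPM, a gene's counts scaled to a common library total after TMM normalization, in the order a, b, c. MARS-seq reads transcripts near their 3′ end, so CPM are not divided by gene length and levels are compared only between libraries, gene by gene. On the first principal component of log2 CPM, which held 42.5% of the variance over all 15 libraries, RB 2 h lay at -21.4, -13.5 and -29.7 and water at 74.6, 60.2 and 64.7. On the third, with 7.4% of the variance, RB 2 h replicate a lay at 46.8 and RB 1 h replicate b at 30.2, against -19.0 to 12.1 for the other libraries. Markers of shoot green tissue held 0.0282% to 0.0486% of the counts in RB 2 h and 0.0373% to 0.0573% in water, which overlap. Root markers were present in both groups. Among them, CASP1, a membrane protein of the endodermal Casparian strip, read 218, 228 and 184 CPM in RB 2 h and 450, 479 and 453 CPM in water.

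After 2 h of RB, genes of small heat shock proteins, tau glutathione transferases and the calcium-binding protein TCH3 were among those with the largest gains, and the nitrate transporter NRT2:1 and several extensin genes were among those with the largest losses. Of 9891 genes tested, 1246 (12.6%) were called higher and 1205 (12.2%) lower by edgeR's quasi-likelihood F test, two-sided, at a Benjamini-Hochberg adjusted p under 0.05. On the log2 scale, the fold changes of genes called higher were larger than those of genes called lower. The median absolute log2 fold change was 1.47 among genes called higher and 1.10 among genes called lower. At least 8-fold changes numbered 197 higher and 48 lower, and at least 32-fold changes 61 higher and 6 lower. Folds that large rest partly on few counts, since 31 of the genes called higher had 0 counts in all 3 water libraries. Of the genes called lower, 0 had 0 counts in all 3 RB 2 h libraries, so such genes add only to the higher side. The median log2 fold change of all genes tested was 0.043. Of the 2451 called genes (24.8% of those tested), 2296 had CPM ranges that did not overlap between the groups. Over all genes tested, ranges lay apart in 18.3% upward and 19.1% downward.

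**Figure D1:**
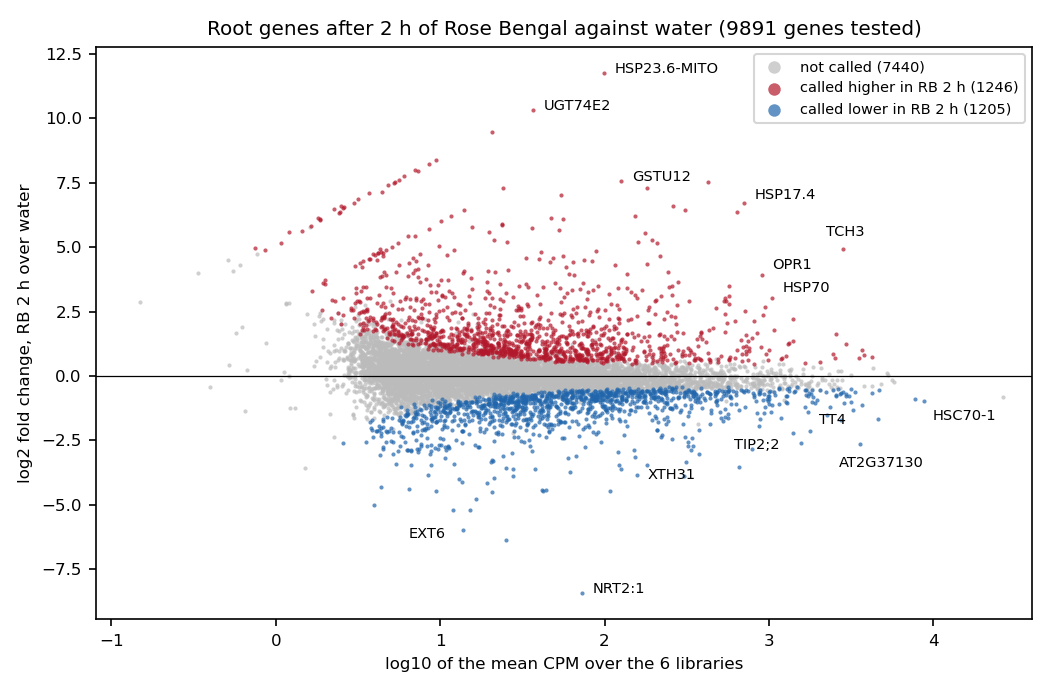
Each dot is 1 of the 9891 genes tested, at the log10 of its mean CPM over the 6 libraries and its log2 fold change (RB 2 h over water), red where called higher, blue where called lower. The red cloud reaches farther from 0 than the blue one, with 61 against 6 genes past 32-fold, and the slanted row of red dots at the upper left holds genes with 0 counts in water, whose fitted fold depends on a prior count.

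The genes called higher took 20.8%, 20.3% and 22.1% of all counts in the RB 2 h libraries, against 7.16%, 7.75% and 7.61% in the water libraries. Those called lower took 19.6%, 19.8% and 18.1% in RB 2 h, against 35.4%, 32.9% and 33.8% in water. Since the same counts chose these genes, the shares describe the size of the change and test nothing. Transcripts of the mitochondrial genome held 2.95%, 2.28% and 1.83% of counts in RB 2 h and 3.91%, 3.69% and 3.30% in water, apart in range, and leaving all organelle genes out gave 1253 genes higher and 1201 lower.

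Measured by CPM gained, TCH3 (AT2G41100), a calmodulin-like protein first known from touched plants, stood first. It read 6294, 4425 and 5577 CPM in RB 2 h, against 178, 224 and 135 CPM in water. Every RB library lay above every water library, and the log2 fold change was 4.93 (SE 0.21, with edgeR quasi-likelihood adjusted p = 6.34e-14). ADC2 (AT4G34710), an arginine decarboxylase that starts polyamine synthesis, averaged 2296 ± 326 CPM in RB 2 h and 493 ± 5.48 CPM in water (SD, n = 3 each). SAG21 (AT4G02380), a small late-embryogenesis-abundant protein of mitochondria linked to oxidative stress, averaged 4147 ± 624 CPM in RB 2 h and 1758 ± 209 CPM in water. UBQ10 (AT4G05320), a polyubiquitin gene often used as a steady reference in quantitative PCR, read 5559, 4232 and 6064 CPM in RB 2 h, against 3480, 2710 and 3419 CPM in water. Its ranges did not overlap, and it passed the test with a log2 fold change of 0.72 (SE 0.19, with edgeR quasi-likelihood adjusted p = 0.00715). The polyubiquitin list had 3 of its 5 genes called higher, UBQ4, UBQ10 and UBQ14, although the call of UBQ14 was lost without RB 2 h replicate c (adjusted p = 0.0703) or water replicate a (0.0671), with 2 of 14 alternatives ending it.

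The largest CPM losses were those of HSC70-1, AT2G37130 and GAMMA-TIP. HSC70-1 (AT5G02500), the cognate HSP70 that works in unstressed cells, read 6729, 6241 and 4831 CPM in RB 2 h, against 12087, 10974 and 12042 CPM in water (-0.98 on the log2 scale, SE 0.18, with edgeR quasi-likelihood adjusted p = 0.000217). The ranges were far apart, so this chaperone gene fell while the stress-induced chaperone genes rose. AT2G37130, a secreted class III peroxidase, averaged 992 ± 189 CPM in RB 2 h and 6133 ± 297 CPM in water. The tonoplast water channels GAMMA-TIP (AT2G36830), TIP2 (AT3G26520) and TIP2;2 (AT4G17340) fell by 1.67, 1.31 and 2.58 on the log2 scale. P40 (AT1G72370), a protein of the small ribosomal subunit, averaged 2303 ± 512 CPM in RB 2 h and 5036 ± 579 CPM in water, and the translation elongation factor AT5G60390 averaged 5334 ± 1290 CPM in RB 2 h and 10031 ± 518 CPM in water.

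**Figure D2:**
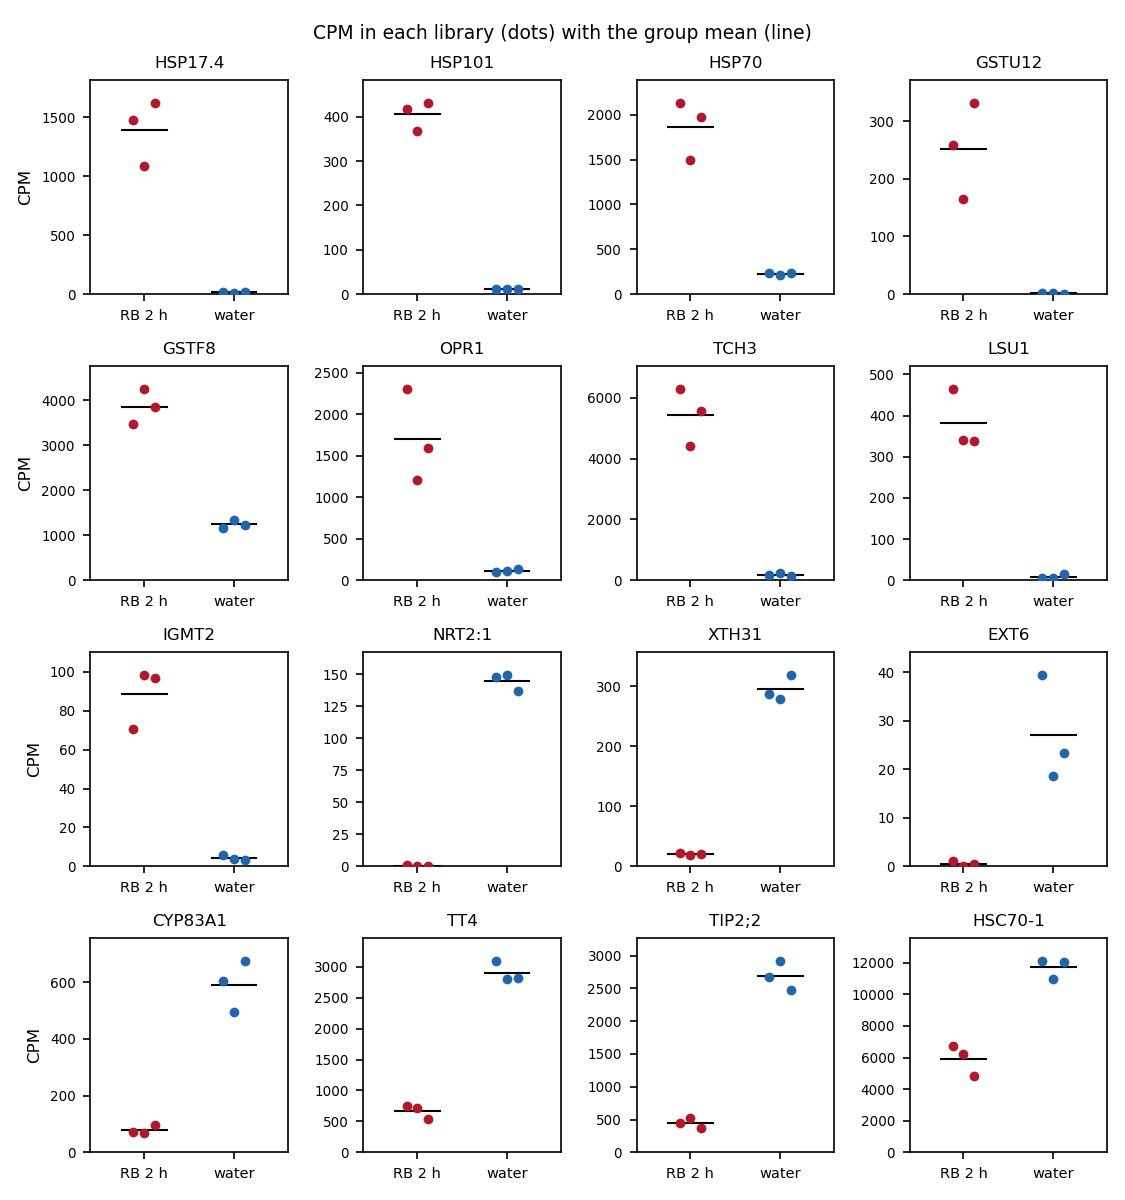
CPM of 16 named genes in each library (dots), with the group mean as a line, RB 2 h at the left and water at the right of each panel, on linear axes from 0. In every panel the 3 RB 2 h libraries lie entirely above or entirely below the 3 water libraries, as for TCH3 (4425 to 6294 against 135 to 224 CPM).

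Among fold changes, the highest ranks belonged to genes that were silent or nearly so in water. HSP23.6-MITO (AT4G25200), a small heat shock protein of mitochondria, read 179, 149 and 267 CPM in RB 2 h and had 0 counts in the 3 water libraries. Counting 3 reads over the water group as a floor, it was at least 272-fold higher. UGT74E2 (AT1G05680), which couples glucose to the auxin precursor indole-3-butyric acid, read 67.5, 26.3 and 127 CPM in RB 2 h, with 0 counts in water, at least 103-fold higher. The uncharacterized gene AT5G24640 was at least 53.9-fold higher (48.4, 19.0 and 56.6 CPM in RB 2 h) and AT1G60750, an aldo-keto reductase family gene, at least 22.8-fold higher (17.1, 15.1 and 19.4 CPM). All of these passed the edgeR quasi-likelihood test, with adjusted p of 7.04e-10 for HSP23.6-MITO to 7.96e-06 for UGT74E2.

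At the other end, NRT2:1 (AT1G08090), the main high-affinity nitrate transporter of roots, read 1.01, 0 and 0.404 CPM in RB 2 h, against 148, 149 and 137 CPM in water. With 2 counts over the RB 2 h libraries and 565 over the water libraries, it was 397-fold lower (95% exact binomial counting interval 109 to 3283). NAS1 (AT5G04950), which makes the metal carrier nicotianamine, was 42.6-fold lower (counting interval 14.1 to 210), at 2.02, 0.487 and 0 CPM in RB 2 h and 22.7, 21.7 and 24.5 CPM in water. GDU4 (AT2G24762), a membrane protein that affects amino acid export, read 8.06, 3.41 and 1.62 CPM in RB 2 h and 68.0, 76.2 and 95.2 CPM in water. Of the other 7 genes among the 10 lowest log2 fold changes of called genes, 6 carry an extensin symbol or a proline-rich extensin-like product, and AT5G51520 is a pectin methylesterase inhibitor family gene. Such intervals and floors cover counting error only.

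All 7 small heat shock protein genes with an HSP symbol were called higher (6 without RB 2 h replicate c or without water replicate c). In a fit of the compared groups alone, 6 had an adjusted p and all 6 were called higher. These proteins hold unfolding proteins in a soluble state. Their median log2 fold change was 7.27, or 6.70 with genes at 0 in water set to their bound, beside 0.043 over all genes tested. HSP17.4 (AT3G46230), a cytosolic class I protein, read 1473, 1082 and 1620 CPM in RB 2 h, against 16.7, 11.2 and 13.1 CPM in water (6.70 on the log2 scale, SE 0.27, with edgeR quasi-likelihood adjusted p = 3.38e-14). HSP17.6A (AT5G12030) averaged 845 ± 200 CPM in RB 2 h and 4.78 ± 2.94 CPM in water, and HSP17.6II (AT5G12020), of class II, 363 ± 81.7 CPM in RB 2 h and 2.39 ± 1.47 CPM in water. The rise took in several compartments. Beside the cytosolic genes and the mitochondrial HSP23.6-MITO, the chloroplast HSP21 (AT4G27670) was at least 4.27-fold higher and ATHSP22.0 (AT4G10250), of the endoplasmic reticulum, at least 19.7-fold higher, both with 0 counts in water. The lowest fitted log2 fold change of the 7, at 2.70, was that of HSP18.2 (AT5G59720). It read 66.5, 50.6 and 61.9 CPM in RB 2 h and 5.97, 11.2 and 9.12 CPM in water. The bound of HSP21 does not settle whether HSP21 rose more or less than HSP18.2. The 7 genes together took 0.238% to 0.373% of counts in RB 2 h and 0.00232% to 0.00312% in water.

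Of 17 large chaperones and co-chaperones, 10 were called higher and 1 lower (2 without RB 2 h replicate a), with a median log2 fold change of 2.18. HSP101 (AT1G74310), which pulls proteins out of aggregates, read 417, 369 and 431 CPM in RB 2 h, against 10.7, 12.0 and 11.4 CPM in water, a log2 fold change of 5.14 (SE 0.30). Hsp70b (AT1G16030), an inducible HSP70, averaged 145 ± 24.9 CPM in RB 2 h and 5.96 ± 2.09 CPM in water, and HSP70 (AT3G12580) 1865 ± 334 CPM in RB 2 h and 229 ± 15.8 CPM in water. BAG6 (AT2G46240), a calmodulin-binding co-chaperone, averaged 104 ± 18.7 CPM in RB 2 h and 1.81 ± 1.87 CPM in water. Also higher were HSP90.1 (log2 fold change 3.91) and MBF1C (3.65), a coactivator needed for heat tolerance. HSP81-2 and HSP81-3, cytosolic HSP90 genes used in unstressed cells, and the mitochondrial HSP60 were not called, and HSC70-1 was the 1 member called lower.

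Heat shock factors bind chaperone promoters, and 10 of 16 in the table passed the filter on low counts. Of these, 7 were called higher and 1 lower, with a median log2 fold change of 1.84. The higher count was 6 without RB 2 h replicate c or without water replicate a or b. In a fit of the compared groups alone, 8 had an adjusted p, with 6 called higher and 1 lower. HSFA2 (AT2G26150), the factor that sustains the heat response, read 18.1, 26.3 and 23.9 CPM in RB 2 h, against 1.19, 0 and 0 CPM in water, 93.3-fold higher (95% exact binomial counting interval 16.5 to 3713). HSFB2A (AT5G62020), of the class that mostly represses, averaged 118 ± 21.8 CPM in RB 2 h and 17.9 ± 4.11 CPM in water, and HSF4 (AT4G36990), of the same class, 257 ± 25.7 CPM in RB 2 h and 89.2 ± 4.97 CPM in water. HSFC1 (AT3G24520), the only class C factor of Arabidopsis, moved the other way. It read 11.1, 6.33 and 10.5 CPM in RB 2 h, against 48.9, 72.5 and 35.9 CPM in water (-2.51 on the log2 scale, SE 0.32, with edgeR quasi-likelihood adjusted p = 2.40e-06).

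Several chaperone and detoxification genes were among the highest fold changes. The 250 bases before the annotated start of each gene were therefore read from RefSeq TAIR10.1 and searched on both strands. The motifs were those of heat shock, TGA, WRKY, ethylene response, bZIP, bHLH and NAC factors, and a clock element. Of the 9891 genes tested, 9872 had such a window. TAIR10.1 was matched by locus name, and no source used here names the build of the authors' counting. Below are 3 windows, each from a gene with a large gain, 5′ to 3′ on the gene's strand and ending just before the gene start. In HSP17.4 (chr3:16984868-16985117, minus strand) the capitals mark both matches to 3 heat shock units (GAA and TTC in turn, with 2 bases between neighbours). In HSP23.6-MITO (chr4:12916676-12916925, plus strand) they mark CTTG and CANG with 5 bases between them, known as the mitochondrial dysfunction motif and bound by ANAC017 and related NAC factors. In GSTU25 (chr1:5871774-5872023, plus strand) they mark TGACG, the core of the as-1 element bound by TGA factors.
HSP17.4: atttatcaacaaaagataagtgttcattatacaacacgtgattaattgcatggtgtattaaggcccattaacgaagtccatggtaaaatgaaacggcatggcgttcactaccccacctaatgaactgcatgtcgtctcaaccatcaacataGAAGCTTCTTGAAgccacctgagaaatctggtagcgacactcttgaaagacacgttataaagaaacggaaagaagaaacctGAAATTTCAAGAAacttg
HSP23.6-MITO: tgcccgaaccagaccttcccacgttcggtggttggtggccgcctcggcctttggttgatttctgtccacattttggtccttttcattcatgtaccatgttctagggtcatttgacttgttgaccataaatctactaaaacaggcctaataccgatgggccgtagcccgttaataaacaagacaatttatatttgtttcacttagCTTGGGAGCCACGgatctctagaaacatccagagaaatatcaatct
GSTU25: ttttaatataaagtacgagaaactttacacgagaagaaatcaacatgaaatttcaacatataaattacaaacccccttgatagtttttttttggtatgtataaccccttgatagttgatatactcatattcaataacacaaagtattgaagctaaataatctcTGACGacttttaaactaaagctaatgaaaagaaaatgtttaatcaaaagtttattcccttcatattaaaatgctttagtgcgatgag

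The 3-unit heat shock element stood in 5 of the 197 windows of genes called at least 8-fold higher (2.54%), against 0.476% of all 9872 windows. Of the 7 small heat shock protein genes only HSP17.4 held it in this window, and of the 10 heat shock factors tested HSFA2 and AT-HSFA7B did. TGACG was found in 30.5% of the windows of genes called at least 8-fold higher and in 19.1% of all windows. It stood before 6 of 14 tau glutathione transferase genes (GSTU24, GSTU25, GSTU11, GSTU7, GSTU5 and GSTU1). The W box of WRKY factors, TTGACC, was in 22.3% of the windows at 8-fold or more and 12.4% of all. The GCC box of ethylene response factors, GCCGCC, was in 5.58% of those at 8-fold or more and 2.05% of all. The G box of bZIP and bHLH factors, CACGTG, was in 11.7% of those at 8-fold or more and 7.77% of all. Among all genes called higher, shares were smaller: heat shock element 1.2%, TGACG 23.2%, W box 15.4%, GCC box 2.89% and G box 8.84%. The evening element AATATCT, a clock element, was in 5.08% of windows at 8-fold or more higher and 10.4% of all. It was in 15.5% of those of genes called at least 4-fold lower, a looser cut-off. Over all called genes it was in 9.4% of windows of those higher and 11.4% of those lower, near the share of all. TGACG and TTGACC share the letters TGAC, and neither contains the other. A match is a run of letters and not a shown binding site.

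**Figure D3:**
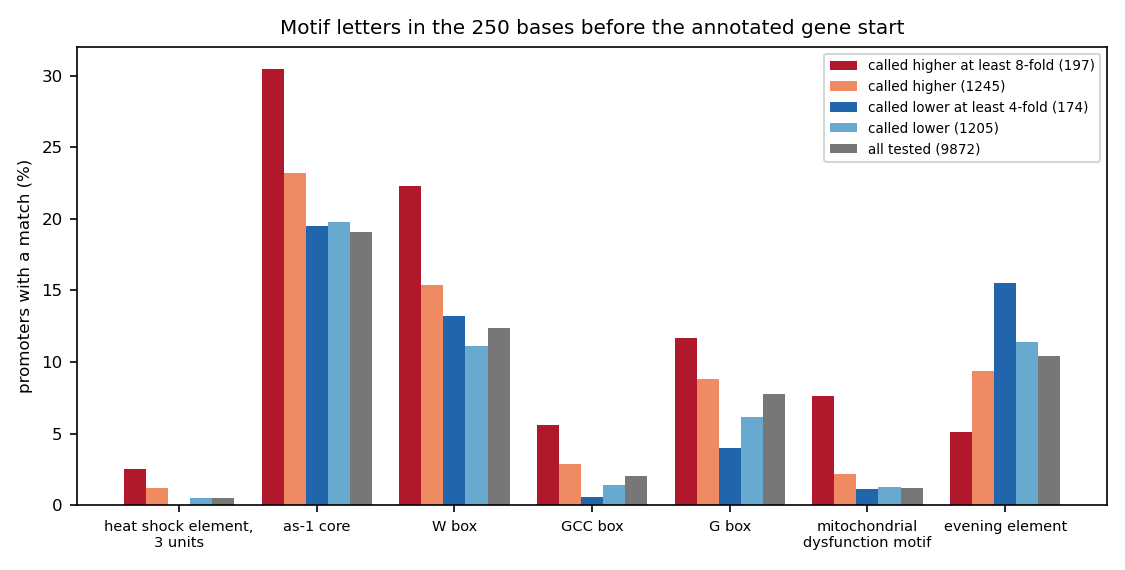
Bars give the percentage of 250-base windows with at least 1 match to each motif on either strand, for 5 groups of genes with their number of windows in the legend. The mitochondrial dysfunction motif shows 7.61% for genes called at least 8-fold higher against 1.19% of all genes tested, and the as-1 core (TGACG) 30.5% against 19.1%.

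The mitochondrial dysfunction motif was in 15 of the 197 windows of genes called at least 8-fold higher, or 7.61%, and in 117 of 9872 windows, or 1.19%. Over all genes called higher it was in 27 of 1245 windows, or 2.17%. It was in 1.24% of the windows of genes called lower and in 1.01% of those not called. The 15 genes hold 18 matches. They are printed here because the same short run recurs before genes of different families, small heat shock proteins (HSP23.6-MITO, HSP17.6II, HSP17.4 and AT5G51440), a cytochrome P450 (CYP81D8), a MATE transporter (AT2G04050) and ATPases of the AAA kind (AT3G28580 and AT2G18193). Each line gives a match with 5 bases on either side, in the direction of the motif, with the fixed letters in capitals, from the gene with the highest fitted fold change downwards. Only the match before AT1G78410 lies on the strand opposite to its gene.
HSP23.6-MITO: cttagCTTGggagcCAcGgatct
AT5G24640: aatttCTTGgtggaCAaGcatgt
AT1G78410: gtaatCTTGtcctaCAtGaaaac
HSP17.6II, farther match: ctgatCTTGaggtgCAtGttgta
HSP17.6II, nearer match: gtacaCTTGtaatcCAaGtcttc
AT4G08555: aatccCTTGgtttcCAaGcaaat
HSP17.4: acactCTTGaaagaCAcGttata
CYP81D8: actttCTTGaggaaCAaGacttg
AT2G04050, farther match: tagaaCTTGattccCAaGtaatc
AT2G04050, nearer match: acgaaCTTGgtcccCAaGtatat
AT5G55150, farther match: tcaaaCTTGctcccCAcGgttcc
AT5G55150, nearer match: ggttcCTTGgatccCAaGtttct
AT1G72940: ataaaCTTGatgcaCAcGaatag
AT5G51440: ttttaCTTGgagacCAcGcagtt
AT4G28460: taataCTTGgtcaaCAcGcaaaa
AT3G28580: taaaaCTTGactaaCAaGtttga
AT2G18193: atttcCTTGcaccgCAcGcttcc
AT1G76600: ttggcCTTGtaaaaCAaGactac

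In these 15 genes AT5G51440, an HSP20-like protein, read 309, 263 and 463 CPM in RB 2 h, against 15.5, 17.2 and 17.7 CPM in water. AT3G28580, a P-loop ATPase, read 160, 83.3 and 87.4 CPM in RB 2 h and 7.16, 7.47 and 3.42 CPM in water. Of the tested NAC genes, NAC017 itself, whose protein is known to be released from a membrane after stress, read 7.05, 4.38 and 5.26 CPM in RB 2 h and 2.39, 2.99 and 1.71 CPM in water and did not pass the test (edgeR quasi-likelihood, adjusted p = 0.236).

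Glutathione transferases of the tau class, which couple foreign and oxidised compounds to glutathione, were among the lists with the largest median. Of 14 tested (22 in the table) 11 were called higher and 1 lower, with a median log2 fold change of 2.38. In a fit of the compared groups alone, 9 had an adjusted p and 7 of them were called higher, and without water replicate c 8 were called higher. GSTU12 (AT1G69920) read 259, 164 and 332 CPM in RB 2 h, against 2.39, 1.49 and 0.570 CPM in water (7.55 on the log2 scale, SE 0.47, with edgeR quasi-likelihood adjusted p = 1.23e-10). GSTU19 (AT1G78380) averaged 821 ± 184 CPM in RB 2 h and 253 ± 20.8 CPM in water, a smaller change in a gene already well expressed. The neighbours GSTU24 and GSTU25 spread more among replicates. GSTU24 (AT1G17170) read 86.6, 20.0 and 123 CPM in RB 2 h and 1.19, 4.48 and 3.42 CPM in water. GSTU25 (AT1G17180) was at least 14.5-fold higher, at 14.1, 3.41 and 16.2 CPM in RB 2 h with 0 counts in water, and its adjusted p of 0.0173 was 0.0618 without RB 2 h replicate c, 0.0607 without water replicate c and 0.0647 without RB 2 h replicate a and RB 1 h replicate b. GSTU20 (AT1G78370), an enzyme tied to jasmonate and glucosinolate metabolism, was the 1 member called lower, at 13.1, 11.7 and 12.1 CPM in RB 2 h and 20.3, 42.6 and 53.0 CPM in water.

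The phi class was split. Of 10 genes tested, 5 were called higher (3 without water replicate a) and 2 lower. GSTF8 (AT2G47730), whose promoter is a standard reporter of oxidative stress in roots, read 3473, 4244 and 3847 CPM in RB 2 h, against 1159, 1327 and 1227 CPM in water (1.64 on the log2 scale, SE 0.17, with edgeR quasi-likelihood adjusted p = 9.71e-08). GSTF11 (AT3G03190), which acts in aliphatic glucosinolate synthesis, fell to 12.1, 11.2 and 14.6 CPM in RB 2 h, against 29.8, 47.1 and 43.3 CPM in water.

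UDP-glycosyltransferases and cytochromes P450 moved in both directions, so their medians lay near 0. Of 40 glycosyltransferases tested, 10 were called higher and 12 lower, with a median log2 fold change of 0.08. The 10 and 12 are 25.0% and 30.0% of the list, beside 12.6% and 12.2% of all genes tested. The lower count ran from 8 without RB 2 h replicate c to 15 without RB 2 h replicate a. Those called higher included 5 genes of the UGT73B group, with UGT73B5 (AT2G15480) at 402, 231 and 316 CPM in RB 2 h and 52.5, 48.6 and 57.0 CPM in water. Lower were UGT72E1, UGT72E2 and UGT72E3, which glycosylate lignin precursors. UGT72E2 (AT5G66690) read 41.3, 56.5 and 34.4 CPM in RB 2 h and 254, 193 and 209 CPM in water. UGT75B1 (AT1G05560), which acts on callose synthesis and on benzoates, was 138-fold higher (95% exact binomial counting interval 47.1 to 673).

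Of 66 cytochromes P450 tested (104 in the table), 12 were called higher and 17 lower (13 without RB 2 h replicate b or c). The 12 and 17 are 18.2% and 25.8% of the list, beside 12.6% and 12.2% of all genes tested. The median log2 fold change was -0.30. CYP81D8 and CYP81D11, which respond to reactive electrophiles, were 62.3-fold (counting interval 17.0 to 519) and 68.6-fold (23.2 to 335) higher. CYP706A1 read 85.6, 207 and 186 CPM in RB 2 h and 5.97, 9.71 and 6.27 CPM in water. CYP83A1 (AT4G13770), the P450 of aliphatic glucosinolate synthesis, fell to 73.6, 67.7 and 98.3 CPM in RB 2 h, against 604, 495 and 673 CPM in water (-2.88 on the log2 scale, SE 0.20, with edgeR quasi-likelihood adjusted p = 1.88e-10). Its groups lay far apart, as did those of CYP81D11.

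Enzymes that reduce carbonyls and quinones had 4 of 9 genes called higher and 0 lower. OPR1 (AT1G76680), an oxophytodienoate reductase that takes reactive unsaturated carbonyls, read 2305, 1210 and 1596 CPM in RB 2 h and 96.7, 114 and 130 CPM in water (log2 fold change 3.90, SE 0.22). OPR3, the paralog that makes jasmonate, was not called. FQR1 (AT5G54500), a quinone reductase, averaged 1240 ± 181 CPM in RB 2 h and 677 ± 75.4 CPM in water. Of 33 ABC and MATE transporters tested, 10 were called higher (6 without water replicate c) and 3 lower, with a median log2 fold change of 0.36. The 10 and 3 are 30.3% and 9.09% of the list, beside 12.6% and 12.2% of all genes tested. ABCB4 (AT2G47000), an auxin carrier of root hairs, averaged 101 ± 2.32 CPM in RB 2 h and 47.7 ± 7.93 CPM in water. Of 16 genes of the thioredoxin and glutathione systems, 2 were called higher (1 without RB 2 h replicate c, water replicate a or water replicate c) and 1 lower (0 without RB 2 h replicate c or water replicate c), near the shares of all genes tested. GSH1 (AT4G23100), the first enzyme of glutathione synthesis, averaged 860 ± 145 CPM in RB 2 h and 423 ± 61.0 CPM in water.

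**Figure D4:**
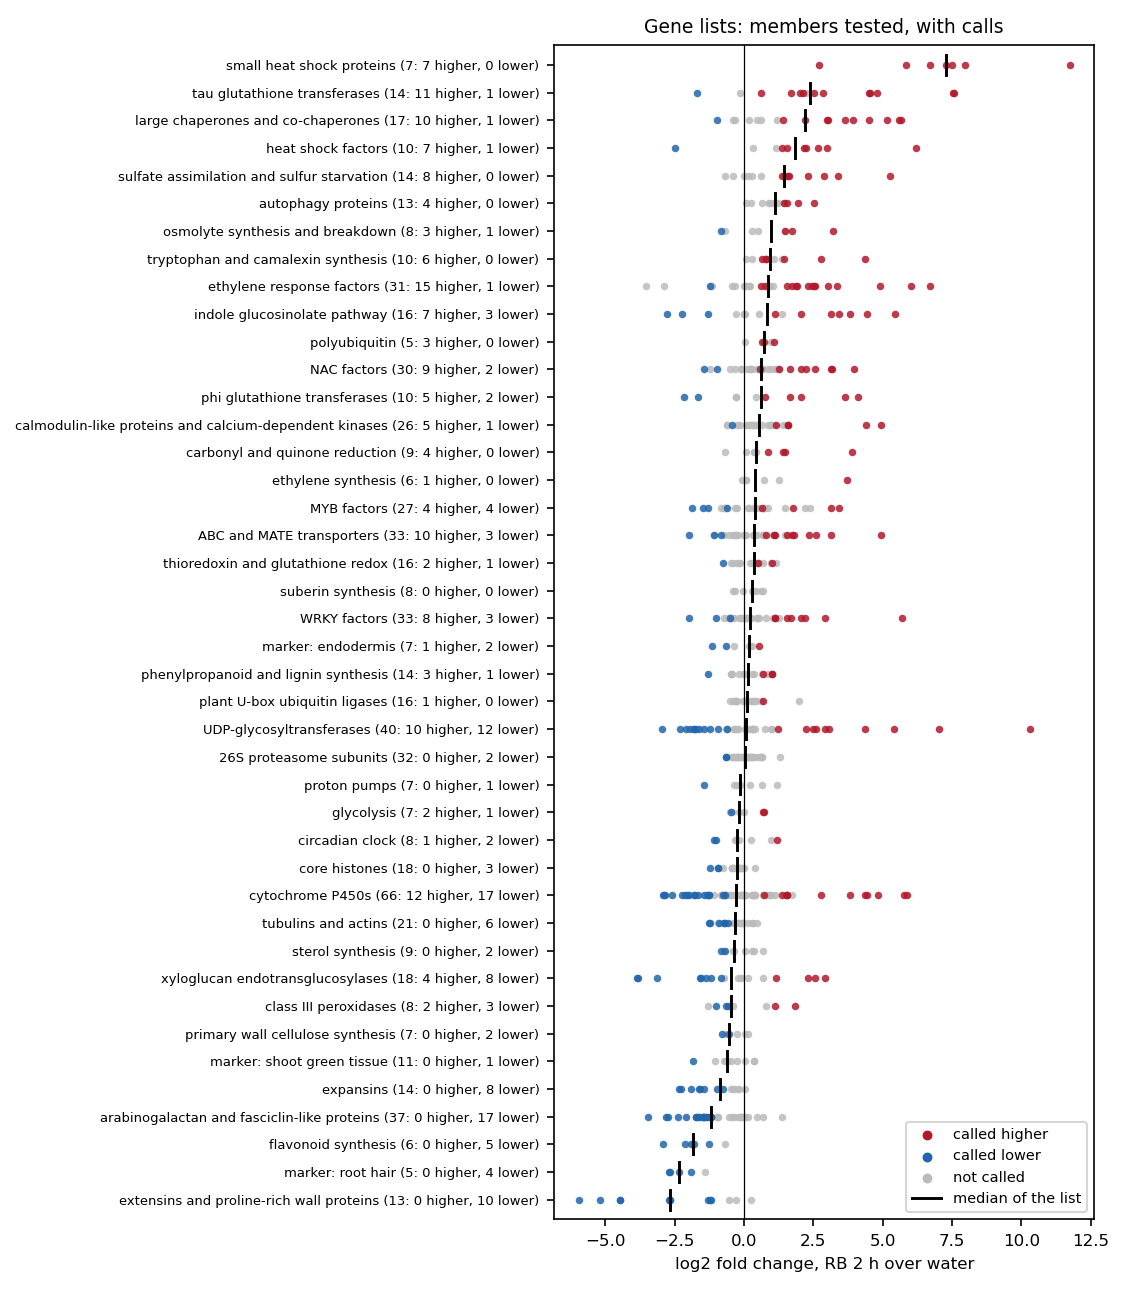
Each dot is a tested member of a gene list at its log2 fold change (RB 2 h over water), coloured by its call, with a bar at the list's median. Lists run down the page from small heat shock proteins (median 7.27) to extensins and proline-rich wall proteins (-2.66), and the medians of glycosyltransferases and 26S proteasome subunits lie near 0.

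Sulfate assimilation supplies cysteine, and through it glutathione. Of 14 genes tested 8 were called higher and 0 lower, with a median log2 fold change of 1.43. LSU1 (AT3G49580), a small protein induced by sulfur shortage, read 464, 340 and 339 CPM in RB 2 h and 4.77, 5.98 and 16.0 CPM in water (log2 fold change 5.27, SE 0.35). APR3 (AT4G21990), an APS reductase, the step that commits sulfate to reduction, averaged 251 ± 49.7 CPM in RB 2 h and 24.4 ± 6.24 CPM in water. SERAT2;1 (AT1G55920), which makes the acceptor for cysteine synthesis, averaged 969 ± 128 CPM in RB 2 h and 130 ± 27.2 CPM in water. The calls covered 2 ATP sulfurylases (APS1 and APS3) and 3 APS reductases (APR1, APR2 and APR3), while the sulfite reductase SIR and the transporter SULTR1;2 were not called.

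Tryptophan feeds camalexin, a defence compound, and indole glucosinolates. In the tryptophan and camalexin list 6 of 10 genes were called higher and 0 lower, beside 12.6% and 12.2% of all genes tested. The higher count was 4 without RB 2 h replicate c or water replicate a, and 7 without RB 2 h replicate b. ASA1 (AT5G05730), the committed enzyme of tryptophan synthesis, read 253, 134 and 177 CPM in RB 2 h and 69.2, 59.0 and 75.8 CPM in water. PAD3 (AT3G26830), the last enzyme of camalexin synthesis, averaged 22.4 ± 8.42 CPM in RB 2 h and 3.18 ± 0.705 CPM in water. Of 16 genes of the indole glucosinolate pathway, 7 were called higher and 3 lower. Those called higher were the methyltransferases IGMT1, IGMT2 and IGMT4, the hydroxylase CYP81F2, the exporter PEN3 and the regulators MYB51 and MYB122, while the methyltransferase IGMT5 was among the 3 called lower. IGMT2 (AT1G21120) read 70.5, 98.4 and 97.1 CPM in RB 2 h and 5.97, 3.74 and 3.42 CPM in water. CYP83B1 (AT4G31500), a core enzyme of the pathway, read 859, 1082 and 925 CPM in RB 2 h and 900, 864 and 1083 CPM in water, which overlap. The regulator MYB34 (AT5G60890) fell to 79.6, 61.4 and 71.6 CPM in RB 2 h, against 179, 170 and 167 CPM in water. MYB28 (AT5G61420), which controls aliphatic glucosinolates, averaged 11.5 ± 3.14 CPM in RB 2 h and 42.4 ± 6.57 CPM in water (-1.87 on the log2 scale, SE 0.26, with edgeR quasi-likelihood adjusted p = 7.80e-06).

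Flavonoid synthesis was lower at nearly every step measured, with 5 of 6 genes called lower and 0 higher and a median log2 fold change of -1.86. TT4 (AT5G13930), chalcone synthase, the entry enzyme, read 755, 723 and 532 CPM in RB 2 h and 3086, 2806 and 2814 CPM in water (log2 fold change -2.12, SE 0.19). F3H (AT3G51240), the next enzyme but 1, averaged 57.3 ± 9.91 CPM in RB 2 h and 216 ± 11.7 CPM in water, and FLS1 (AT5G08640), flavonol synthase, 24.8 ± 6.76 CPM in RB 2 h and 88.6 ± 16.4 CPM in water. The member not called was the regulator MYB12. The general phenylpropanoid pathway upstream did not fall with them: of 14 genes, 3 were called higher (the phenylalanine ammonia-lyases PAL1, PAL2 and PAL4) and 1 lower (4CL3). Without RB 2 h replicate c 1 was called higher, PAL2 and PAL4 having adjusted p of 0.0709 and 0.285, and PAL4 also lost its call without water replicate a (0.0756) or b (0.106), while 0 were called lower without any 1 library other than RB 2 h replicate b. No suberin gene was called among 8 tested (median log2 fold change 0.30).

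Among ethylene response factors, 15 of 31 genes were called higher and 1 lower, beside 12.6% and 12.2% of all genes tested. The higher count was 13 without RB 2 h replicate b or c or without water replicate a or c. In a fit of the compared groups alone, 23 had an adjusted p and 13 of them were called higher. ERF6 (AT4G17490), an activator of stress genes, read 1047, 839 and 998 CPM in RB 2 h and 116, 143 and 99.7 CPM in water. ERF-1 (AT4G17500) averaged 1218 ± 291 CPM in RB 2 h and 214 ± 33.0 CPM in water. ERF71, a member of the group linked to low oxygen, was 34.4-fold higher (95% exact binomial counting interval 11.5 to 169), at 14.1, 19.5 and 36.8 CPM in RB 2 h. The lower count was 2 with DESeq2 and without RB 2 h replicate a or water replicate a, and 4 without water replicate c. EBP, another gene of that group, was the member called lower in the fit of all libraries, at 168, 141 and 149 CPM in RB 2 h and 332, 251 and 492 CPM in water.

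Of 30 NAC factors 9 were called higher and 2 lower. The lower count was 0 with DESeq2 and without water replicate a or c, and 1 without water replicate b or any 1 RB 2 h replicate. NAC102 (AT5G63790) read 208, 250 and 313 CPM in RB 2 h and 16.7, 22.4 and 11.4 CPM in water. Its close relatives ATAF1, ATAF2 (AT5G08790) and NAC032 (AT1G77450) were called as well, with log2 fold changes of 1.64, 3.15 and 3.17. WRKY factors had 8 of 33 called higher (5 without water replicate c) and 3 lower. WRKY33 (AT2G38470), which controls camalexin genes, read 321, 398 and 362 CPM in RB 2 h and 34.6, 74.0 and 34.2 CPM in water. WRKY65 (AT1G29280) fell by 1.02 on the log2 scale. Of 27 MYB factors 4 were called higher and 4 lower (2 lower without RB 2 h replicate b, without water replicate c or with no filter on low counts). Each count is 14.8% of the list, near the 12.6% and 12.2% of all genes tested.

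Among calmodulin-like proteins and calcium-dependent kinases, 5 of 26 were called higher and 1 lower, and 0 were called lower without any 1 RB 2 h replicate or without water replicate b or c. The 5 and 1 are 19.2% and 3.85% of the list, beside 12.6% and 12.2% of all genes tested. CML37 (AT5G42380), a calmodulin-like protein, read 115, 102 and 151 CPM in RB 2 h and 8.35, 8.96 and 1.71 CPM in water. The kinase gene CDPK19 had a log2 fold change of 1.58. Of 32 subunits of the 26S proteasome, 0 were called higher and 2 lower (PAF2 and RPN1A). The lower count was 0 without RB 2 h replicate b or c, without any 1 water replicate and in a fit of the compared groups alone. It was 4 without RB 2 h replicate a and 7, with 1 higher, without that library and RB 1 h replicate b. Autophagy genes had 4 of 13 called higher, a count that ran from 1 without water replicate c, and 2 without RB 2 h replicate b or with the compared groups alone (where 7 had an adjusted p), to 7 without RB 2 h replicate a and RB 1 h replicate b. Among osmolyte genes, GolS1 (AT2G47180), a galactinol synthase under heat shock factor control, read 104, 78.9 and 139 CPM in RB 2 h and 11.9, 7.47 and 14.8 CPM in water.

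Extensins had the lowest median of the lists described. Of 13 extensin and proline-rich wall protein genes tested, 0 were called higher and 10 lower (6 without RB 2 h replicate c), with a median log2 fold change of -2.66, beside 0.043 over all genes tested. EXT6 (AT2G24980) read 1.01, 0 and 0.404 CPM in RB 2 h and 39.4, 18.7 and 23.4 CPM in water, 69.5-fold lower (95% exact binomial counting interval 18.7 to 582). EXT13 (AT5G35190) averaged 0.795 ± 0.339 CPM in RB 2 h and 18.0 ± 6.22 CPM in water. Outside the list, which holds genes with a symbol, the extensin-like gene AT3G54580 read 5.04, 16.6 and 5.26 CPM in RB 2 h and 301, 146 and 174 CPM in water. In several of these genes RB 2 h replicate b was the highest of its group and water replicate b the lowest of its own. EXT4 (AT1G76930) read 897, 2328 and 1016 CPM in RB 2 h and 4068, 2228 and 3547 CPM in water, so its ranges overlapped, and 9 of 14 alternatives ended its call, among them those without RB 2 h replicate a (adjusted p = 0.150) or c (0.166) and without water replicate a (0.131) or c (0.114). Summed over the list, extensins held 0.218%, 0.611% and 0.287% of counts in RB 2 h and 0.737%, 0.444% and 0.626% in water, which overlap too. Extensin genes are near-identical repeats, and reads can be shared or split among them.

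Arabinogalactan and fasciclin-like proteins, which coat the cell surface, had 17 of 37 genes called lower and 0 higher (1 without RB 2 h replicate b or water replicate b). AGP24 (AT5G40730) read 98.7, 89.1 and 83.3 CPM in RB 2 h and 542, 697 and 558 CPM in water (log2 fold change -2.73, SE 0.23). AGP18 (AT4G37450) averaged 112 ± 16.1 CPM in RB 2 h and 374 ± 39.6 CPM in water. Expansins, which loosen walls without cutting them, had 8 of 14 called lower and 0 higher. The lower count was 6 without replicate b or c of either group. EXPB1 (AT2G20750) read 8.06, 10.2 and 4.85 CPM in RB 2 h and 45.4, 40.3 and 26.2 CPM in water.

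Xyloglucan endotransglucosylases, which cut and rejoin wall polymers, moved in both directions, with 4 of 18 called higher and 8 lower. XTH31 (AT3G44990) fell to 22.2, 19.0 and 21.0 CPM in RB 2 h, against 286, 279 and 318 CPM in water (-3.84 on the log2 scale, SE 0.26, with edgeR quasi-likelihood adjusted p = 1.47e-10). XTR6 (AT4G25810) did the opposite, with 478, 447 and 337 CPM in RB 2 h and 75.2, 102 and 76.4 CPM in water. TCH4, a touch-induced member, had a log2 fold change of 2.92, and its values were 64.5, 18.5 and 45.3 CPM in RB 2 h and 5.97, 7.47 and 3.42 CPM in water. XTH14 (AT4G25820), next to XTR6 in locus number, averaged 31.6 ± 3.62 CPM in RB 2 h and 275 ± 26.8 CPM in water.

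Of 21 tubulin and actin genes, 6 were called lower (3 without RB 2 h replicate c or without water replicate b) and 0 higher (1 without RB 2 h replicate a and RB 1 h replicate b). TUA2 (AT1G50010), an alpha-tubulin, read 393, 259 and 307 CPM in RB 2 h and 747, 793 and 764 CPM in water, and TUB2 (AT5G62690), a beta-tubulin, 842, 1052 and 751 CPM in RB 2 h and 921, 1011 and 993 CPM in water, which overlap. Of 18 core histone genes, 3 were called lower and 0 higher, beside 12.2% and 12.6% of all genes tested, with HTB1 (AT1G07790) at 95.5 ± 8.03 CPM in RB 2 h and 223 ± 4.73 CPM in water. HA2 (AT4G30190), the chief plasma membrane proton pump of roots, read 24.2, 50.2 and 50.1 CPM in RB 2 h and 94.3, 125 and 125 CPM in water. It was the 1 of 7 proton pump genes called, a share near that of all genes. DWF1 (AT3G19820), a sterol enzyme on the way to brassinosteroids, averaged 289 ± 52.1 CPM in RB 2 h and 521 ± 48.3 CPM in water.

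Root hair markers fell with the extensins: 4 of 5 were called lower, with a median log2 fold change of -2.36 and a summed share of 0.00291% to 0.00534% of counts in RB 2 h, against 0.0148% to 0.0181% in water. EXPA7 (AT1G12560), an expansin of hair cells, read 7.05, 16.6 and 11.3 CPM in RB 2 h and 45.4, 48.6 and 42.7 CPM in water. LRX1 (AT1G12040), a wall protein that hairs need for their shape, read 1.01, 4.87 and 1.62 CPM in RB 2 h and 14.3, 19.4 and 17.7 CPM in water. The call of PRP3, the weakest of the 4, was lost without RB 2 h replicate c (adjusted p = 0.0631). In whole roots, fewer cells of a type and less RNA per cell cannot be told apart, and the part of hair cells in the fall of wall genes was not tested. EXPA7, EXPA18, LRX1 and PRP3 are themselves members of the wall lists.

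Markers of other root tissues made short lists, so their shares called are coarse. Of the 7 endodermis markers tested, 2 were called lower (28.6%, beside 12.2% of all genes tested). The median log2 fold change of the list was 0.17. CASP1 (AT2G36100) fell by 1.14 on the log2 scale (SE 0.18, edgeR quasi-likelihood test, adjusted p = 3.83e-05), and the call of PER64 was less firm. It was lost under 6 of 14 alternatives, with adjusted p of 0.0621 without RB 2 h replicate a, 0.165 without c, and 0.0917, 0.0738 and 0.0714 without water replicate a, b and c. Among 4 stele and xylem markers, 3 phloem markers, 1 root cap marker and 2 markers of dividing cells, 0 were called in either direction. Of all genes tested 24.8% were called, and lists this short do not describe a tissue. SUC2 (AT1G22710), the sucrose loader of phloem companion cells, read 148, 123 and 137 CPM in RB 2 h and 122, 120 and 148 CPM in water. Clock genes matter here because the groups differ in time: of 8 tested, 1 was called higher (2 without RB 2 h replicate a) and 2 lower. The 1 and 2 are 12.5% and 25.0% of the list, beside 12.6% and 12.2% of all genes tested. The higher call, of PRR7, was lost without water replicate a (adjusted p = 0.0509) or c (0.0518). GRP7 (AT2G21660), a clock-controlled RNA-binding protein, read 2146, 2201 and 1873 CPM in RB 2 h and 4546, 3878 and 4248 CPM in water. ELF4 (AT2G40080), of the evening complex, averaged 91.3 ± 27.6 CPM in RB 2 h and 196 ± 17.1 CPM in water. The part of time of day in any change was not tested.

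Against 1 h of RB, where the dye is on both sides, 557 genes (5.63%) were called higher and 411 (4.16%) lower at 2 h. Both comparisons use the RB 2 h libraries, so their values are set side by side and not correlated. All 7 small heat shock protein genes were called higher in this comparison too, with a median log2 fold change of 3.43, and so were 8 of 14 tau glutathione transferases and 9 of 14 sulfate genes. HSP17.4 averaged 1392 ± 278 CPM in RB 2 h and 190 ± 40.7 CPM in RB 1 h (2.88 on the log2 scale, SE 0.21, with edgeR quasi-likelihood adjusted p = 3.11e-09). UGT75B1 averaged 108 ± 43.0 CPM in RB 2 h and 2.12 ± 1.08 CPM in RB 1 h. HSP18.2 had a mean of 6.19 CPM in RB 1 h and 8.76 CPM in water, and a log2 fold change of 3.29 for RB 2 h over RB 1 h.

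Other genes were called against water and not against RB 1 h. IGMT2 averaged 88.6 ± 15.7 CPM in RB 2 h and 88.9 ± 38.5 CPM in RB 1 h, with a log2 fold change of -0.01 (SE 0.27). XTR6 averaged 421 ± 74.1 CPM in RB 2 h and 336 ± 81.6 CPM in RB 1 h, and WRKY33 361 ± 38.2 CPM in RB 2 h and 248 ± 88.7 CPM in RB 1 h. A p above the threshold does not show that these levels were equal, and the difference between the 2 comparisons was not tested. In the indole glucosinolate list as a whole, 1 gene was called higher and 1 lower against RB 1 h. The tubulin TUA2 had the reverse order, with 319 ± 68.1 CPM in RB 2 h, 785 ± 113 CPM in RB 1 h and 768 ± 23.4 CPM in water, called lower at 2 h against both. MYB28 likewise was called lower against both, with 36.9 ± 0.594 CPM in RB 1 h. AT1G78410, a VQ-motif gene with 0 counts in water, was lower in RB 2 h (9.74 to 12.1 CPM) than in RB 1 h (mean 22.8 CPM), with a log2 fold change of -1.13.

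The authors' deposited table marks 1434 genes in this comparison, 796 higher and 638 lower in RB 2 h once its sign, coded as water over RB, is turned. Of the 1606 genes called here at 2-fold or more (9.25% of genes tested higher and 6.99% lower), 1405 carry the authors' mark, and 0 marked genes have the opposite sign. Of the 172 genes named by rule, 48 overlap another annotated gene. OPR1 (with OPR2), GSTF8, SAG21, UGT73B5 and DWF1 overlap a gene on the same strand, which strand cannot separate. On the opposite strand, 43 overlap an annotated gene, among them HSP17.4, TCH3, WRKY33, GSTU7 and TUA2. No source used here states whether the counting used the strand, so reads of such partners cannot be told apart. Close paralogs, such as IGMT2 and IGMT4, GSTU24 and GSTU25 or HSP17.6A and its relatives, can share or split reads, and their single values are uncertain.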

How the data were processed

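Roots were profiled by MARS-seq, which counts transcripts near their 3′ end. The deposited table holds whole-number counts per gene, made by the authors. The tools named in the submitters' processing notes are bcl2fastq, cutadapt, STAR 2.4.2a, HTSeq and DESeq2. No source used here gives the build, annotation, strand setting or any collapsing of molecular identifiers. The authors' deposited log2 ratios (water over RB), adjusted p-values and marks were used only where named, and 30 other columns of per-library values were not used.

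Of 14391 genes, 9891 passed edgeR's filterByExpr and 4500 were set aside. Counts were scaled by TMM and all 15 libraries (5 groups of 3) were fitted together in edgeR 4.0.16 (R 4.3.3) by the quasi-likelihood test, with Benjamini-Hochberg adjustment over all genes tested. The biological coefficient of variation was 20.6%, with 10 residual degrees of freedom. DESeq2 1.42.0 was an alternative. Other alternatives were RLE and upper quartile scaling, no filter, a fit of the compared groups alone, organelle genes left out, a replicate block and each replicate left out. Leaving out RB 2 h replicate a and RB 1 h replicate b was chosen after seeing the data.

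Genes were named by rule: the 10 highest and 10 lowest log2 fold changes of called genes with a mean count of at least 10 and ranges apart, the 10 largest CPM gains and losses, and up to 3 called members of each list with its most abundant member. Further list members, and genes with a motif match, were named after their values were seen. The members and the 48 lists were chosen with earlier results of these data known. Where a group had 0 counts, folds are bounds from a floor of 3 counts over the group, and 95% intervals are exact binomial. Both cover counting error only, since reads may not be independent molecules.

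Same-lettered RB 2 h and water replicates did not deviate together (r over 9891 genes of -0.113, -0.189 and -0.0535), so the letters were not taken to pair libraries. Each replicate is a pool of seedlings. Promoter windows came from RefSeq TAIR10.1. The result of 1 endodermis marker is not reported here.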

Additional observations from a re-analysis of the deposited data

How the results depend on the processing

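Against water, the counts of genes called higher and lower were 1246 and 1205. They were 1101 and 1158 with DESeq2, 1259 and 1093 with no filter, and 1088 and 922 in a fit of the compared groups alone. Leaving out 1 replicate at a time gave 913 to 1336 higher and 788 to 1321 lower, the lowest count of lower genes being that without RB 2 h replicate c. With the replicate block, although the letters do not pair the libraries, 1112 were called higher and 1091 lower against water, and 477 and 353 against RB 1 h. Against RB 1 h, a fit of the compared groups alone called 325 higher and 252 lower, and leaving out 1 replicate gave 307 to 553 higher and 232 to 396 lower, the lowest being those without RB 1 h replicate a (307 and 234) and without RB 2 h replicate c (380 and 232). Upper quartile scaling turned the balance of calls in both comparisons, with 485 higher and 529 lower against RB 1 h (557 and 411 with TMM), and 1210 higher and 1299 lower against water. The causes were not tested. Of 172 named genes 150 were called, 118 of them under all 14 alternatives. Log2 fold changes that changed sign belonged to genes that were not called. CYP83B1 was at -0.01 with upper quartile scaling and -0.09 to 0.12 with a replicate left out. HTB9, a histone, was at 0.02 with no filter, 0.07 with the compared groups alone, 0.00 without organelle genes, 0.09 without the 2 libraries apart on the third component and -0.13 to 0.09 with a replicate left out. Without those 2 libraries AT1G62380 was at -0.10 and SUC2 at -0.01. With a replicate left out, AT1G62380 ran from -0.10 to 0.28, SUC2 from -0.00 to 0.17, SMB from -0.37 to 0.23 and CDKB2;2 from -0.63 to 0.50.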
